A study of Saccharina japonica with 9 samples.

Results

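Nuclear CpG methylation of the kelp Saccharina japonica was described as single sites and as CpG dyads, the symmetric pairs of cytosines that a CpG forms on the plus and minus strands. The deposited lists held methylated cytosines from whole-genome bisulfite sequencing, in which unmethylated cytosines are read as thymine. All rows of CpG context outside the chloroplast and the mitochondrion were taken, which gave 8113811 CpG sites of 33480993 nuclear sites of every context over 9 libraries. A dyad was a plus-strand site and a minus-strand site at the next base, both listed in 1 library, and the 9 libraries held 89069 of them.

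The libraries came from male gametophytes (MG, 2 months), female gametophytes (FG, 2 months) and sporophytes (SP, 4 months), with 3 libraries each. All were of strain Ye-c12. The haploid gametophytes were grown as clones that trace to a blade of the Ye-c12 sporophyte, and the diploid sporophytes came from crossing such gametophytes. The study calls the 3 libraries of each stage biological replicates. The sources used here do not state whether they came from separate cultures, and the p-values measure only the spread between these libraries. Libraries are called MG1 to SP3, by stage and replicate number. Lists of methylated cytosines hold no expression values, so the stages could not be checked against marker genes.

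In animals and land plants, a CpG carries methyl groups on both strands because the maintenance methyltransferase (DNMT1, or MET1 in plants) copies the mark from the old strand to the new one after replication. CHG sites, where H is any base but guanine, are also symmetric, whereas CHH sites are not. Methylation kept up in this way places methylated cytosines in pairs, so that a dyad has both strands methylated at a like level. Bisulfite reads come from single strands, and each strand of a dyad was therefore measured on separate reads.

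The lists held only cytosines that were covered by at least 5 reads and had a corrected p-value under 0.05, so a site missing from a list was not shown to be unmethylated. A CpG site with 1 methylated read was listed up to a coverage of 14 to 16 reads in the MG libraries, of 16 to 19 reads in the FG libraries, and of 18 and 17 reads in SP2 and SP3. In SP1 the same limit was 67 reads. For CHG and CHH sites it was 71 to 86 reads in 8 libraries, and 284 and 288 reads in SP1. SP1 therefore stood apart from the other libraries, and contexts were listed over unequal ranges of coverage. Results that rest on SP1 are given with and without it, and a common range of 5 to 14 reads was used as an alternative chosen after the data were seen.

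CpG sites were most numerous in the gametophytes. The MG libraries listed 1180103, 1217380 and 1251028 sites, the FG libraries 1044992, 790656 and 1292573, and the SP libraries 459873, 404666 and 472540. MG and FG overlapped, and both lay above every SP library. The exact permutation test gave p = 0.1 for either gametophyte against SP, the smallest value that 3 against 3 libraries allow, and p = 0.4 for MG against FG (two-sided, like all tests here). Adjusted over 21 tests of per-library values, the p of 0.1 became 0.21. Of these sites, 49.9% to 50.6% lay on the plus strand. Most rested on a single methylated read: at least 2 methylated reads were seen at 3.32% ± 0.591 of MG sites, 2.70% ± 0.443 of FG sites and 1.38% ± 0.248 of SP sites (SD, n = 3 each). Where a single read was methylated, the level is simply the inverse of the coverage.

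CpG dyads were rare in every library. MG1 to MG3 held 14643, 15542 and 15610 dyads, FG1 to FG3 held 11784, 6929 and 17332, and SP1 to SP3 held 2782, 1874 and 2573. MG and FG overlapped again, with SP below both (exact permutation p = 0.1 for each against SP and 0.4 for MG against FG). Of the CpG sites, 2.51% ± 0.0380 in MG, 2.23% ± 0.465 in FG and 1.08% ± 0.142 in SP had the cytosine across the dyad listed too (SD, n = 3 each). Most listed CpG sites thus stood without their partner in the same library.

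The number of dyads was then set against pairs formed between libraries. For each library, the plus-strand sites were also paired with minus-strand sites of the other 2 libraries of its stage, and the dyad ratio was the rate of pairs within the library over the mean rate between libraries, per minus-strand site. A ratio of 1 means that the strands of a dyad were listed together in 1 library no more often than in separate libraries. A dyad methylated on both strands in several libraries of a stage adds to both rates. The ratio therefore does not measure symmetric methylation that libraries share. The ratio was 1.03 (95% Poisson interval 1.01 to 1.04), 1.03 (1.01 to 1.04) and 0.989 (0.973 to 1.004) in MG1 to MG3. It was 1.03 (1.01 to 1.05), 1.04 (1.02 to 1.07) and 0.999 (0.984 to 1.01) in FG1 to FG3. In SP1 it was 1.22 (1.18 to 1.27), against 1.03 (0.980 to 1.07) in SP2 and 1.003 (0.965 to 1.04) in SP3. The intervals are exact and cover counting error only. Over all listed sites, every library except SP1 lay within 0.05 of 1, and the stages overlapped (exact permutation p = 0.5 between MG and FG, 0.7 between FG and SP, and 0.6 between MG and SP). The libraries of a stage serve as each other's reference, and ratios were not computed anew for permuted labels. With this reference, p-values between stages are therefore only approximate, although every permutation was counted. With SP1 left out of the whole computation, the means were 1.01 in MG, 1.02 in FG and 0.989 in SP, so the sign of both comparisons with SP turned. With all 8 other libraries as the source of pairs between libraries, the ratios were 1.03, 1.02 and 0.995 in MG, 1.05, 1.05 and 1.01 in FG, and 1.26, 1.08 and 1.07 in SP, so that both gametophytes lay below SP (exact permutation p = 0.1 for each, the smallest possible). They also lay below SP over a common range of 5 to 14 reads (means of 1.01 in MG, 1.01 in FG and 1.07 in SP, exact permutation p = 0.1 for each). There SP1 to SP3 had ratios of 1.14, 1.034 and 1.032, and the highest gametophyte ratio was 1.028, in MG1. In both settings SP1 is part of the pairs between libraries of SP2 and SP3, and neither was computed without SP1.

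**Figure D1:**
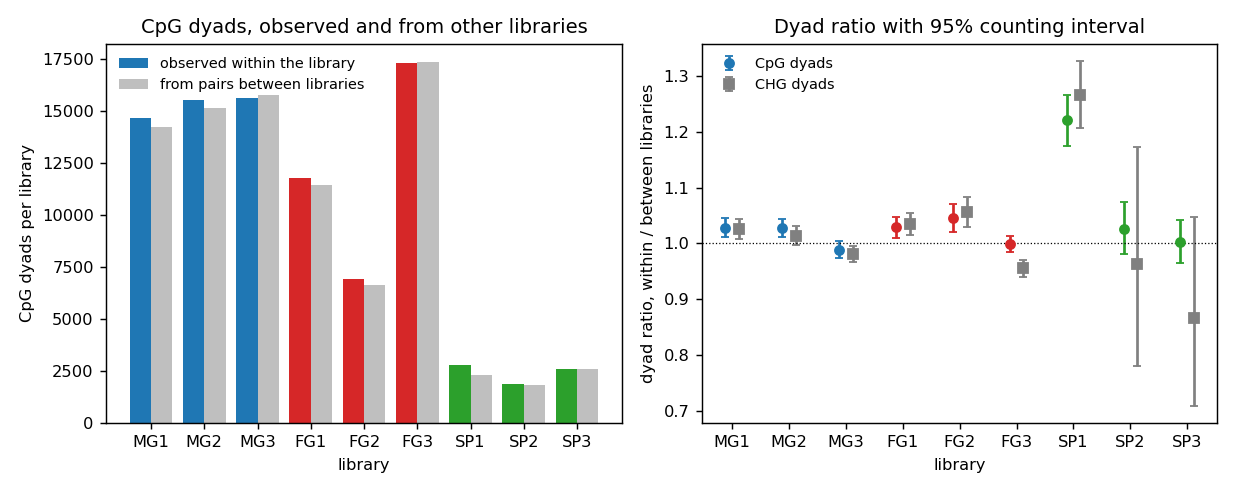
CpG dyads per library (left; coloured bars observed, grey bars the number given by pairs between libraries of the same stage) and the dyad ratio (right; circles CpG, grey squares CHG, bars 95% Poisson intervals of the count). Observed and between-library numbers are close in 8 libraries, and SP1 lies at 1.22 for CpG and 1.27 for CHG.

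CHG dyads, whose strands lie 2 bases apart, served as the other symmetric context. The mean ratio over the 9 libraries was 1.04 ± 0.0696 for CpG and 1.02 ± 0.109 for CHG (SD, n = 9). The CpG ratio was the higher one in 6 of 9 libraries, with a mean difference of 0.04 on the log2 scale (exact sign-flip permutation p = 0.184, 0.35 after adjustment over 21 tests). SP1 stood apart for CHG as well, with a ratio of 1.27 (1.21 to 1.33), while SP2 and SP3 had only 98 and 107 CHG dyads to compare. Over the common range of 5 to 14 reads, the SP1 ratio for CpG was 1.14. Without 21 scaffolds of high-level dyads, described below, the SP1 ratio was 1.12 for CpG and 1.09 for CHG. These scaffolds were picked for their CpG dyads, so a lower CpG ratio without them follows in part from that choice. On scaffolds of at least 10 kb the SP1 ratio was 1.12 for CpG and 0.995 for CHG. There the CpG ratio exceeded the CHG ratio by 0.07 on the log2 scale over the 9 libraries (exact sign-flip permutation p = 0.0195, unadjusted). The excess was largest in SP, where SP2 and SP3 had CpG ratios of 1.03 and 1.003 and CHG ratios of 0.933 and 0.868. In MG the CpG ratios were 1.03, 1.02 and 0.986 and the CHG ratios 1.02, 1.01 and 0.974. In FG they were 1.03, 1.04 and 0.996 against 1.03, 1.05 and 0.948.

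With at least 2 methylated reads at both sites, the ratio was larger than over all sites in the gametophytes and SP1, and smaller in SP2 and SP3. It was 1.21, 1.30 and 1.83 in MG, 1.40, 2.20 and 1.72 in FG, and 69.2, 0.657 and 0.746 in SP. These ratios rest on 194 to 569 dyads in a gametophyte library, on 279 in SP1, and on 6 and 9 in SP2 and SP3. Pairs between SP libraries numbered 1 to 11, so that the SP ratios have little precision. Without the 21 scaffolds of high-level dyads, the same ratio came to 1.18, 1.04 and 0.870 in MG1 to MG3, to 1.27, 1.11 and 0.898 in FG1 to FG3, and to 14.2 in SP1 from 34 dyads. In MG3 and FG3 this was below the ratio over all sites. Since the scaffolds were picked for dyads of high level, a lower ratio without them follows in part from that choice. CHG dyads of 2 reads had ratios of 1.13 to 1.70 in the gametophytes and 12.6 in SP1. At a coverage of at least 10 reads the CpG ratio ranged from 0.879 in MG3 to 1.69 in FG2. A dyad ratio near 1 thus did not hold at every minimum of reads.

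Distance showed where pairs did form. Pairs of CpG sites on the same strand were found within a library more often than between libraries, and this held at short distance in all 9 libraries. At 2 to 10 bases the same-strand ratio averaged 2.11 and ranged from 1.78 in FG3 to 2.65 in SP1. Pairs on opposite strands at this distance averaged 1.03, with a range of 0.971 to 1.19. The same-strand ratio then fell with distance. It averaged 1.79 at 11 to 50 bases, 1.48 from there to 100 bases, 1.27 from there to 200 bases and 1.12 in the last window, which ended at 300 bases. The opposite-strand means lay between 1.02 and 1.03 in all 5 windows. The same-strand ratio was above the opposite-strand ratio in 9 of 9 libraries in every window (exact sign-flip permutation p = 0.00391, the smallest that 9 libraries allow, and 0.00469 after adjustment over 6 tests). In the common range of coverage the means at 2 to 10 bases were 2.21 on the same strand and 1.02 on opposite strands. The windows were chosen after the data were seen, and which sites shared a read is not recorded in the lists.

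The dyad itself was then set against other opposite-strand pairs nearby. Pairs at 3 to 50 bases on opposite strands had ratios of 1.03, 1.03 and 0.990 in MG, 1.01, 1.05 and 0.994 in FG, and 1.197, 0.986 and 0.989 in SP. SP1 was the highest library for these pairs too. The dyad ratio exceeded the ratio of these pairs in 5 of 9 libraries, by a mean of 0.01 on the log2 scale (exact sign-flip permutation p = 0.121). Without MG3 the difference was 0.0195 (p = 0.0312, exact), and without SP1 it was -0.00697 (p = 0.312, exact). MG3 thus decided its side of the threshold, and SP1 its sign.

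**Figure D2:**
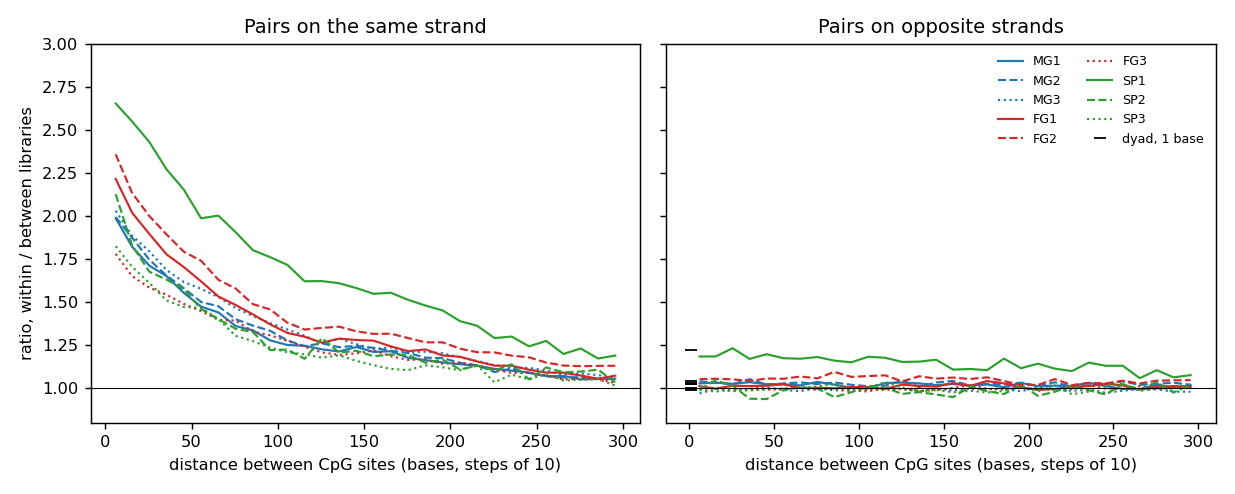
Ratio of CpG pairs within a library to pairs between libraries of its stage, by distance in steps of 10 bases, on the same strand (left) and on opposite strands (right), 1 line per library; black dashes at 1 base are the dyad ratios. Same-strand lines start between 1.78 and 2.65 and fall towards 1, and opposite-strand lines stay flat, highest in SP1, whose dyad ratio is 1.22.

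Few dyads were seen again in another library. Over the 9 libraries 88349 distinct dyads were listed, of which 87770 (99.3%) were in 1 library, 472 in 2, 78 in 3, 24 in 4 and 5 in 5 libraries. Within a stage, 2 dyads were listed in all 3 MG libraries, 1 in all 3 FG libraries and none in all 3 SP libraries. Single CpG sites were listed again more often: of 7425950 distinct sites, 91.4% were in 1 library, 8.07% in 2 and 0.520% in 3. The partner strand was listed in any library for 15.0% of the sites seen in 1 library, for 15.7% of those seen in 2, and for 22.9% of the 676 sites seen in 5 or more. Of these last sites, 13.6% lay on the scaffolds of high-level dyads, against 0.0263% of the sites seen in 1 library.

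Both dyads of all 3 MG libraries lay on scaffold 2041, under deep coverage and at a low level. Coordinates are given as the files give them. The dyad at bases 8915 to 8916 had 10 of 563, 8 of 580 and 8 of 1033 methylated reads on the plus strand of MG1 to MG3, and 5 of 592, 11 of 656 and 7 of 584 on the minus strand. It was also a dyad in FG1, with 7 of 565 and 9 of 549 reads. The dyad at 8940 to 8941 had 6 of 592, 7 of 612 and 7 of 1061 methylated reads on the plus strand of MG1 to MG3. The dyad of all 3 FG libraries lay at 17038 to 17039 of scaffold 2915, where 6 of 491, 5 of 446 and 9 of 554 plus-strand reads were methylated in FG1 to FG3, with 9 of 1037, 9 of 825 and 13 of 1324 on the minus strand. It was also a dyad in MG3, with 12 of 506 and 15 of 1553 reads. All 3 dyads were thus at a low level on either strand, the highest being 0.0237.

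Dyads of high level lay on few scaffolds. A level of at least 0.5 on both strands was reached by 60, 73 and 228 dyads in the MG libraries, by 83, 137 and 411 in the FG libraries, and by 266, 0 and 0 in the SP libraries. Of these 1258 dyads, 1192 lay on 21 scaffolds that each held at least 5 of them in some library, over a span of 133096 bases out of 522.7 Mb. The libraries used different scaffolds. On scaffold 2915, MG3 had 132 such dyads, FG2 had 24 and FG3 had 119, and the other 6 libraries had none. On scaffold 2215, FG3 had 188 and MG3 had 8. On scaffold 9758 the numbers were 28 and 4 in MG1 and MG2, 44 and 28 in FG1 and FG2, and 49 in SP1, with none in MG3, FG3, SP2 and SP3. On scaffold 4809 they were 6, 18 and 7 in MG1 to MG3, 66 and 21 in FG2 and FG3, and 26 in SP1. The scaffolds thus crossed the stages in several combinations. Of the single CpG sites at this level, MG3 and FG3 shared 473, which was 57.8% of those of MG3 and 27.6% of those of FG3. FG1 and SP1 shared 246 (50.7% and 22.3%). Within stages, MG1 and MG2 shared 165 (41.8% and 39.7%) and FG2 and FG3 shared 176 (29.7% and 10.3%), whereas MG1 and MG3 shared 4. What libraries of different stages have in common was not tested.

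**Figure D3:**
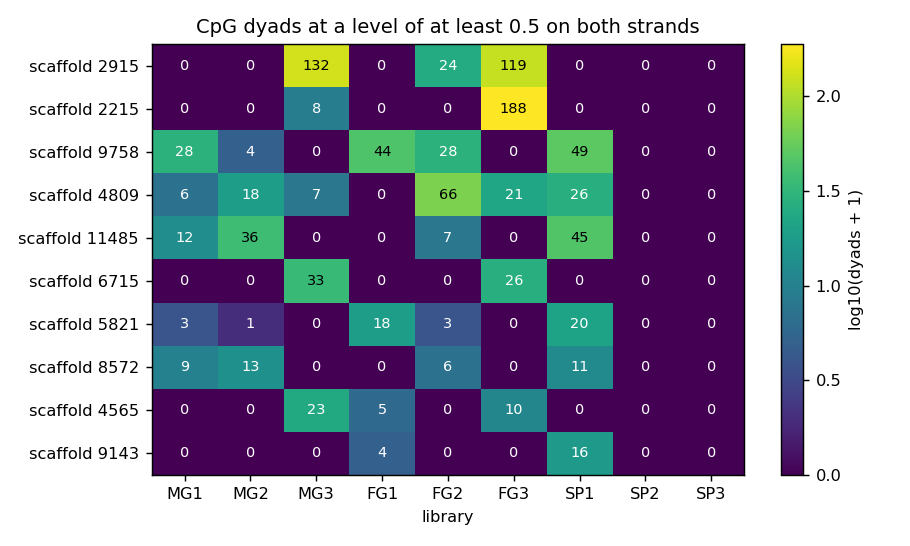
Number of CpG dyads with a methylation level of at least 0.5 on both strands in each library (columns), for the 10 scaffolds with most of them (rows); colour is log10 of the number plus 1. Scaffolds 2915, 2215 and 6715 are filled in MG3 and FG3, and scaffold 2915 also in FG2. Scaffolds 9758 and 11485 are filled in MG1, MG2, FG2 and SP1, and scaffold 9758 also in FG1. SP2 and SP3 are empty.

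On most of these scaffolds the other contexts were at high levels as well. On scaffold 2215 in FG3, the mean level was 0.991 over 797 CpG sites, 0.991 over 684 CHG sites and 0.990 over 2586 CHH sites. On scaffold 9758 in SP1, it was 0.971 over 99 CpG sites, 0.980 over 18 CHG sites and 0.971 over 279 CHH sites. Listed cytosines of every context were thus read as methylated in nearly all reads there, including CHH sites, which have no symmetric partner. Bisulfite lists count every unconverted cytosine as methylated, and conversion on these scaffolds was not tested. On scaffolds 2915, 4565 and 4809 CpG sites stood above the other contexts in every library with at least 5 high-level dyads. On scaffold 2915 the mean level in MG3 was 0.771 for CpG, 0.539 for CHG and 0.529 for CHH sites, and in FG3 it was 0.792, 0.565 and 0.528 in the same order. Median coverage in this order was 9, 11 and 12 reads in MG3, and 27, 69 and 79.5 reads in FG3. CHG and CHH sites with 1 methylated read were listed up to a higher coverage than CpG sites, so these means do not compare contexts at like coverage. In MG1, which had no high-level dyad there, CpG sites of this scaffold had a mean level of 0.0252 at a median coverage of 906 reads. On scaffold 4809 the mean level in FG2 was 0.771 for CpG, 0.566 for CHG and 0.526 for CHH sites, and in SP1 it was 0.757, 0.617 and 0.518. These scaffolds were picked for their high-level dyads, and no test was made of them. Of the 5 dyads listed in 5 libraries, the 3 with the highest mean level lay on scaffolds 5821 and 9758. The dyad at 3667 to 3668 of scaffold 5821 had 8 of 8 and 6 of 6 methylated plus-strand reads in MG1 and MG2, 11 of 12 and 9 of 10 in FG1 and FG2, and 19 of 19 in SP1. Its minus strand had 9 of 9 and 5 of 5 reads in MG1 and MG2, 11 of 11 and 13 of 13 in FG1 and FG2, and 19 of 19 in SP1. The dyads at 528 to 529 and 479 to 480 of scaffold 9758 followed, listed in the same 5 libraries with levels from 0.857 to 1.

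In SP2 and SP3 high levels took another form. These libraries had 24 and 20 CpG sites at a level of at least 0.5, against 2 sites of other contexts in each. None of the 24 sites and 1 of the 20 lay in a dyad, and 3 sites were shared. In the other 7 libraries CpG made up 14.3% to 24.9% of the sites at this level.

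The levels of the strands of a dyad were equal in 11.4% of dyads in MG3 up to 16.2% in SP2. The plus strand was the higher one in 42.2% to 44.0% of dyads and the minus strand in 41.4% to 45.0%. Across dyads of a library, which are not independent replicates, Pearson's r between the levels of the strands was 0.652, 0.655 and 0.844 in MG, 0.754, 0.900 and 0.894 in FG, and 0.982, 0.243 and 0.194 in SP. Among dyads with both strands under 0.5, r was 0.115 to 0.190 in MG, 0.114 to 0.272 in FG, and 0.510, 0.243 and 0.171 in SP, with 1874 to 16899 dyads a library. The coverages of the strands, on a log scale, had r of 0.306 to 0.768, the highest in SP1. Both sites had a single methylated read in 88.3% to 96.9% of dyads.

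Dyads with at least 2 methylated reads on both strands numbered 244, 221 and 423 in MG1 to MG3, 217, 194 and 569 in FG1 to FG3, and 279, 6 and 9 in SP1 to SP3. As a share of dyads this was 1.93% ± 0.684 in MG, 2.64% ± 0.734 in FG and 3.57% ± 5.60 in SP (SD, n = 3 each). The SP mean came from SP1 alone, at 10.03% against 0.320% and 0.350%; without SP1 it was 0.335%, below both gametophytes. No difference passed the test (exact permutation p = 0.2 for MG against FG and 1 for each against SP). Without the 21 scaffolds the means were 1.06% in MG, 0.796% in FG and 0.670% in SP. These scaffolds were picked for dyads of high level, each of which has at least 2 methylated reads on both strands. The fall thus follows from the choice of scaffolds, and the order of the stages here depends on it.

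Dyads were spread over 4700 of 9613 scaffolds. Most were on scaffold 11, with 376 summed over the libraries in a span of 1105565 bases, followed by scaffold 2915 with 352 in 28998 bases and scaffold 23 with 338 in 858725 bases. On scaffold 11, MG had 94, 98 and 62 dyads, FG 28, 21 and 54, and SP 8, 8 and 3. Scaffold 23 ran the other way among gametophytes, with 23, 31 and 34 dyads in MG, 98, 61 and 60 in FG, and 12, 10 and 9 in SP. Both were picked for their totals, and no test was made of them. Among the 2307 scaffolds of at least 50 kb, the median was 159 dyads per Mb. Scaffold 2215 had 3402 per Mb, 188 of its 196 dyads coming from FG3, and scaffolds 2041 and 2212 had 648 and 603.

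The methylation level of CpG sites was set against that of the other contexts. Over all sites, the mean level was 0.139, 0.137 and 0.127 in MG, 0.142, 0.145 and 0.128 in FG, and 0.117, 0.145 and 0.141 in SP. CpG sites averaged 0.136 ± 0.00958, against 0.129 ± 0.00984 for CHG and 0.130 ± 0.00989 for CHH sites (SD, n = 9). CpG was above CHG in 9 of 9 libraries (exact sign-flip permutation p = 0.00391) and above CHH in 8 of 9 (p = 0.00781), and neither passed after adjustment over 21 tests (adjusted p = 0.082 for both). In the common range of 5 to 14 reads the differences were 0.00028 against CHG (exact p = 0.316) and -0.00031 against CHH (exact p = 0.484). With levels weighted by reads, CpG averaged 0.118, against 0.0954 for CHG and 0.0964 for CHH sites, a difference of 0.0221 and 0.0211 (exact sign-flip permutation p = 0.00391 for both). At a coverage of at least 10 reads the differences were 0.0101 and 0.00944. The difference between contexts was thus larger under both of these settings and not seen in the range of 5 to 14 reads.

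**Figure D4:**
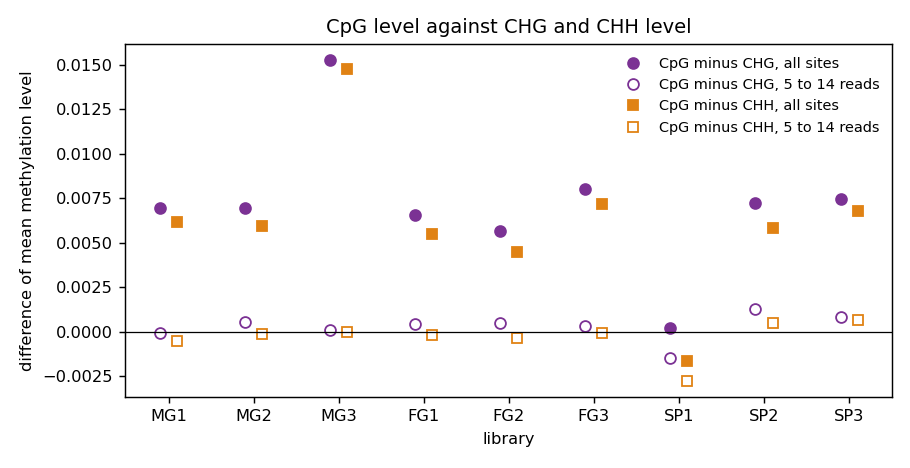
Mean methylation level of CpG sites minus that of CHG sites (purple circles) and CHH sites (orange squares) in each library, over all sites (filled) and over sites covered by 5 to 14 reads (open). Filled symbols lie above 0 except for CHH in SP1, and open symbols lie near 0.

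The share of CpG among listed sites changed less with this range. At 5 to 14 reads CpG made up 23.7% to 24.7% of nuclear sites in MG, 23.7% to 24.3% in FG, and 27.3%, 60.3% and 61.2% in SP1 to SP3. The base next to CpG sites was also compared between stages. Since no genome sequence was used here, a neighbouring base was read from the lists: a cytosine listed there on the same strand in another gametophyte library was a C, and one listed on the opposite strand was a G. This gave the base before the CpG for 5.42% to 8.61% of sites. C and G are not listed at equal rates, so the G-to-C ratio compares libraries and is no base composition. The ratio for the base before the CpG was 0.743, 0.734 and 0.645 in MG, 0.725, 0.631 and 0.635 in FG, and 0.973, 1.35 and 1.39 in SP. All gametophyte libraries lay below all SP libraries, of which SP2 and SP3 were furthest away (exact permutation p = 0.1 for either gametophyte against SP, the smallest possible, and 0.9 after adjustment over 18 tests). With SP1 left out, the SP mean was 1.37. At the other 5 positions compared, from 3 bases before the CpG to 3 bases after it, the stages overlapped over all sites. For the base just after the CpG the ratio was 0.725 to 0.746 in MG, 0.725 to 0.761 in FG and 0.695 to 0.755 in SP. Sites with at least 2 methylated reads had ratios before the CpG of 0.434 to 0.598 in MG, 0.439 to 0.594 in FG, and 0.894, 1.43 and 1.67 in SP. In that set the gametophytes also lay below SP at 3 other positions. The ratio was 0.722 to 0.885 in gametophytes and 0.892 to 0.988 in SP at the second base before the CpG, 1.05 to 1.11 and 1.13 to 1.33 at the second base after it, and 1.14 to 1.25 and 1.28 to 1.39 at the third base after it. This measure was chosen after the data were seen.

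**Figure D5:**
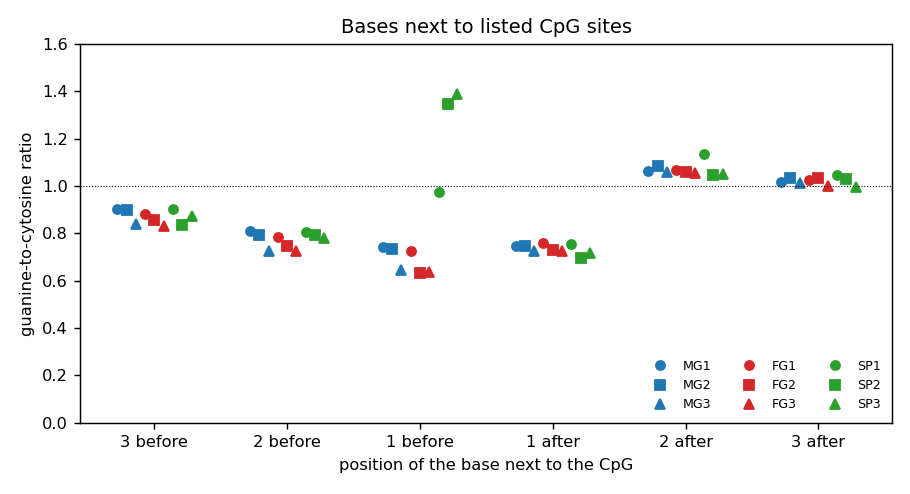
Ratio of guanine to cytosine at the positions next to listed CpG sites, as read from the lists of other gametophyte libraries, for MG (blue), FG (red) and SP (green) libraries. Symbols overlap at every position but the base just before the CpG, where the gametophytes lie between 0.631 and 0.743 and SP1 to SP3 at 0.973, 1.35 and 1.39.

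Finally, CpG methylated reads were summed in bins of 10 kb and compared between stages with edgeR, with the mapped reads of each library as its size. Between MG and FG, 2036 of 55631 bins were higher in MG (3.66%) and 452 were lower (0.812%), a total of 2488 (4.47%) at a Benjamini-Hochberg adjusted p under 0.05. The median of all bins was shifted by 0.12 on the log2 scale. With TMM scaling, 1752 bins were higher and 912 lower. Leaving out MG1, MG2 or FG1 brought the total to 1654, 1497 or 1517. Between FG and SP, 49254 bins were higher in FG (91.3%) and 82 lower (0.152%), with a median of 1.52. Between MG and SP, 51230 were higher in MG (93.3%) and 38 lower (0.0692%), with a median of 1.66. The sums moved with the number of listed sites, which was higher in gametophytes. With CpG methylated reads as the library size, which sets the totals of the libraries equal, 13 of 53971 bins were higher in FG and 73 lower against SP. Of 54921 bins, 819 were higher in MG and 469 lower against SP. Restricted to sites in dyads, edgeR called 0 of 2124 bins between MG and FG, with 234 at an unadjusted p under 0.05, and 0 of 412 between FG and SP, with 147. Between MG and SP it called 297 higher and 5 lower in MG, a count given here without its share of the bins tested. These tests on dyad sites also took mapped reads as library size, so the larger number of dyads in MG than in SP entered them.

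The bins with the largest changes held CpG sites in some stages and none in others. On scaffold 1304, the bin at 110001 to 120000 had 172, 182 and 110 CpG methylated reads in MG, 0, 0 and 0 in FG, and 45, 29 and 12 in SP. Against a floor of 3 reads over the FG libraries, it was at least 145-fold higher in MG than in FG (edgeR adjusted p = 3.44e-16). The bins at 100001 and 80001 of this scaffold came next, at least 139-fold and 136-fold higher. Scaffold 3828 ran the other way, with 0 reads in each MG library, 1, 60 and 55 in FG, and 0 in each SP library at 1 to 10000. MG was at least 41.2-fold lower than FG (edgeR adjusted p = 1.99e-10), and FG at least 46.3-fold higher than SP (edgeR adjusted p = 1.2e-14). FG1 had only 1 of these reads. The bin at 10001 to 14545 of scaffold 3828 and the bin at 1 to 10000 of scaffold 2653 followed, at least 12.4-fold and 8.87-fold lower in MG than in FG.

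Against SP, scaffold 2215 had the largest rise in FG. The bin at 30001 to 40000 had 2, 15 and 890 reads in FG and 0 in each SP library. FG3, where listed sites of all contexts had mean levels near 1, was far above FG1 and FG2. Without FG3 the log2 change was 6.34 in place of 11.26 (edgeR adjusted p = 0.000136). The largest falls in FG were at 1 to 7206 of scaffold 5226, with 0 reads in each FG library against 96, 12 and 21 in SP, and on scaffold 1304 at 90001 to 100000, with 0 in each FG library against 70, 24 and 30 in SP. These were at least 35.9-fold and 34.5-fold lower in FG. In MG against SP, 3 bins on scaffolds 1406, 2288 and 1211 had 21 to 48 reads in every MG library and 0 in every SP library, at least 34.1-fold to 43.1-fold higher in MG. The same bins had 0 reads in FG. Bins lower in MG than in SP were small: the bin at 20001 to 20987 of scaffold 3194 had 0 reads in each MG library and 4, 5 and 8 in SP, and the bin at 1 to 4349 of scaffold 4577 had 5, 2 and 8 reads in MG and 49, 10 and 26 in SP. The third, on scaffold 12445, had 0, 0 and 1 reads in MG and 6, 1 and 2 in SP (adjusted p = 0.0443), and lost its call without MG1 (adjusted p = 0.113) or MG2 (0.114). A bin without listed sites may hold unmethylated, uncovered or absent DNA, which cannot be told apart in lists of methylated cytosines.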

How the data were processed

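Whole-genome bisulfite libraries of 9 samples were analysed from the authors' lists of methylated cytosines. The authors treated lambda-spiked DNA with bisulfite and aligned paired-end reads with Bismark to a reference genome of the species. FastQC is also named in the submitters' processing notes. The study describes a reassembled genome, but neither a build name nor the test behind the listed p-values is given in the sources used here. The deposited columns hold counts of methylated and unmethylated reads per cytosine, the methylation level as a fraction of reads, and a p-value with its corrected p-value, all made by the authors.

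Nuclear CpG sites and dyads were taken per library. The members, lists and tests were chosen with earlier results of these data known. Stages were compared by exact permutation tests and contexts by exact sign-flip permutation tests (scipy 1.17.1), with Benjamini-Hochberg adjustment. The median coverage of listed CpG sites was 7 to 9 reads. The study describes the removal of duplicate read pairs, those at equal coordinates, ahead of methylation calling. Intervals cover counting error only, since reads without molecular identifiers may still not be independent molecules.

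CpG methylated reads were summed per 10-kb bin. Bins with at least 10 reads over the 2 stages compared entered edgeR 4.0.16 (quasi-likelihood test, mapped reads given by the study as library sizes, no scaling factors), which was tested on simulated data. DESeq2 1.42.0 was an alternative. The bins named were up to 3 per comparison and direction, with the largest fitted change among called bins whose libraries did not overlap. The dyads named were up to 3 per stage, listed in all 3 libraries with at least 2 methylated reads on each strand, and 3 listed in most libraries, by the highest mean level. The scaffolds named were the 3 with most dyads and the 3 with most dyads per Mb among those of at least 50 kb. A scaffold's span reaches its last listed site. No genome or annotation was used here, so no sequences or genes are given. Alternatives were coverage limits, read minimums, scaling, tool, filters, bin length, pairing and leaving out each library.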

Additional observations from a re-analysis of the deposited data

Results flagged for a closer look

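The dyad ratio, relative to the ratio of opposite-strand pairs at 3 to 50 bases, moved in opposite directions in MG and SP when SP1 was included. The difference of log2 ratios was between -0.00892 and -0.00196 in the 3 MG libraries and between 0.0199 and 0.0582 in the 3 SP libraries, so that MG minus SP was -0.0399. The exact permutation test gave p = 0.1, the smallest that 3 against 3 libraries allow, so the design could not pass the threshold. The FG libraries had values on both sides of 0, between -0.0108 and 0.0259. SP1 had a dyad ratio of 1.22, and SP2 and SP3 held 1874 and 2573 dyads. SP1 is part of the pairs between libraries of SP2 and SP3. With SP1 left out, the values of SP2 and SP3 were -0.0359 and -0.0284, below 0 like those of MG, so the opposite directions rest on SP1.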

How the results depend on the processing

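Of 410 alternative values of the main results, 361 kept their direction and their side of the threshold (for counts of bins, stayed within 1.5 times), as did 324 of 369 for single bins. Permutation tests of 3 against 3 libraries cannot give a p under 0.05. For these stage comparisons the side of the threshold was therefore fixed by the design, and only the direction could change. Where a value was not kept, the cause was not tested. The alternatives on the common coverage of 5 to 14 reads, on scaffolds of high-level dyads, on distance and on neighbouring bases were chosen after the data were seen. Differences are given as MG minus FG, FG minus SP and MG minus SP.

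At a coverage of at least 10 reads, the dyad ratio of FG minus SP was 0.0243, and the share of dyads with 2 methylated reads on both strands differed by 5.28 (FG minus SP) and 3.15 (MG minus SP) percentage points. With at least 2 methylated reads per site, the number of dyads of MG minus FG was -30.7, the share of sites in a dyad differed by -0.752 (MG minus FG), -1.62 (FG minus SP) and -2.37 (MG minus SP) points, and the mean CpG level differed by 0.00206 from CHG and -0.00506 from CHH. At 5 to 14 reads, the dyad ratio of MG minus FG was 0.00200, the level difference was 0.000283 from CHG and -0.000313 from CHH, and the log2 dyad ratio of CpG minus CHG was -0.00217. The last was 0.0685 on scaffolds of at least 10 kb (exact sign-flip permutation p = 0.0195, unadjusted), with the largest values in SP. It was -0.0841 with at least 2 methylated reads and without the scaffolds of high-level dyads, an alternative also chosen after the data were seen. With 2 methylated reads per site, the mean dyad ratio was 1.45 in MG, 1.77 in FG and 23.5 in SP, the last from SP1. Without the scaffolds of high-level dyads, the share of dyads with 2 reads on both strands differed by 0.259 (MG minus FG), 0.126 (FG minus SP) and 0.385 (MG minus SP) points. These scaffolds were picked for such dyads, so this change follows in part from that choice.

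With each library left out in turn, the dyad ratio differed by -0.0173 to 0.00257 (MG minus FG, positive only without FG3), -0.146 to 0.0348 (FG minus SP) and -0.155 to 0.0255 (MG minus SP), both positive only without SP1. The share of dyads with 2 reads on both strands ranged from -2.55 to 2.31 (FG minus SP) and from -3.26 to 1.598 (MG minus SP) points, again positive only without SP1. The log2 difference of dyads and opposite-strand pairs at 3 to 50 bases ranged from -0.00697 without SP1 to 0.0340 without SP3. Bins called between MG and FG ranged from 1497 without MG2 to 2894 without MG3.

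For bins called between MG and FG, DESeq2 gave 1352 with its own size factors and 1423 with mapped reads, sites of 2 reads gave 114, 50-kb bins 1447 and dyad sites 0. For FG against SP, TMM scaling gave 87, CpG totals as library size 86 (37 at 5 to 14 reads), DESeq2 with its own size factors 37, sites of 2 reads 5, a coverage of at least 10 reads 854, 50-kb bins 12827 and dyad sites 0. For MG against SP, the same settings gave 1301, 1288 (937 at 5 to 14 reads), 108, 3268, 17376, 13202 and 302. These are counts and not shares of the bins tested, whose number differed between settings. Bins of 50 kb are fewer than bins of 10 kb, and smaller sets of sites left fewer bins with at least 10 reads.

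Replicate numbers did not pair the libraries, since same-numbered libraries correlated above 0.1 in only 1 of 9 pairs (r from -0.0009 to 0.1033). A replicate block gave 2422, 49419 and 50995 called bins. Depth limits single sites, since 96.0% to 98.9% of CpG sites in a library had 1 methylated read and the median coverage was 7 to 9 reads.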
